A study of Homo sapiens with 2 samples.

Results

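The epidermal growth factor (EGF) family was examined through 9 genes picked by symbol from the deposited count table: the ligands HBEGF, AREG, EREG, TGFA, BTC and EGF, and the receptors EGFR, ERBB2 and ERBB3. All 9 were among the 46865 loci of the table, and 6 of them reached a mean of 1 count per 1000000 (CPM) over both libraries. The PNU282987 library came from primitive macrophages exposed to 100 µM PNU282987, which fully activates the α7 subtype of nicotinic acetylcholine receptors, for 12 hours, and the Control library from the same kind of cells with no agonist in their labels. Both were wild-type cells of 1231A3, a single human line of induced pluripotent stem cells, taken through 30 days of differentiation as a model of microglia. A vehicle is not stated, and the labels of the PNU282987 library disagree, since its title and library name give the agonist and its treatment entry gives amyloid β.

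EGF family ligands are made as membrane-anchored precursors, and metalloproteases, above all ADAM17, cut the extracellular part free. The soluble ligand binds EGFR or a related receptor, the receptors pair, and the RAS to ERK kinase cascade is switched on, followed by feedback inhibitors that the cascade itself induces. ERBB2 has no known ligand and works as a partner receptor, and ERBB3 has a weak kinase and relies on its partners. HBEGF, heparin-binding EGF-like growth factor, is a product of activated macrophages and, as the membrane-bound precursor, the receptor for diphtheria toxin.

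With 1 library per group no difference had a replicate check, and no p-value is given. Every interval below is a 95% interval for counting error alone, exact Poisson for a level and exact Clopper-Pearson for a ratio or share, and it leaves out the variation between cultures. The PNU282987 library held 36134391 reads and the Control library 39316475, so that 3 reads stood at 0.0823 CPM in PNU282987 and 0.0770 CPM in Control. Of the 12 macrophage markers 12 reached 1 CPM, with a summed level of 6607 CPM in PNU282987 and 6998 CPM in Control. CSF1R, the receptor that macrophages need to survive, had 1059 CPM in PNU282987 and 1291 CPM in Control, and ITGAM, an integrin chain, 473 CPM in PNU282987 and 138 CPM in Control. The 12 macrophage markers were split, with intervals of the ratio above equality for 4 and below it for 8, and a median log2 ratio of -0.32. By the 2-fold rule given below 2 of the 12, CD14 and ITGAM, were higher in PNU282987 and 0 lower, against 2.96% and 2.81% of all loci. The 10 stromal markers summed to 3264 CPM in PNU282987 and 2879 CPM in Control, and the 10 epithelial markers to 133 CPM in PNU282987 and 139 CPM in Control, with KRT14 at 0 reads in both; KRT8, a keratin, had 51.4 CPM in PNU282987 and 57.9 CPM in Control. The 8 hepatocyte markers summed to 141 CPM in PNU282987 and 154 CPM in Control. SERPINA1 alone gave 69.7 CPM in PNU282987 and 93.6 CPM in Control. Of the 7 hepatocyte genes at 1 CPM 5 had more CPM in PNU282987, where 49.2% of all loci had a ratio above 1. Counting intervals of the ratio lay above equality for 2 of the 7 and below it for 1. Over these 7 the log2 ratios ran from -0.43 for SERPINA1 to 0.83 for APOB, with 0.14 in the middle. The 7 pluripotency markers summed to 2.22 CPM in PNU282987 and 1.36 CPM in Control, with POU5F1 and TDGF1 at 0 reads in both. In such bulk RNA, more cells of a type cannot be told apart from more RNA per cell, and the part of these cell types in the values below was not tested.

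HBEGF was the member that differed most. It had 2705 reads in the PNU282987 library and 195 reads in the Control library, or 74.2 CPM (71.4 to 77.0) in PNU282987 and 5.00 CPM (4.33 to 5.76) in Control. The level in PNU282987 was 14.8-fold the level in Control, with a counting interval of 12.8-fold to 17.2-fold. On the log2 scale the ratio was 3.89 (3.68 to 4.11). HBEGF was chosen with this contrast known, so the ratio is a description. A locus was counted as higher or lower here when the libraries differed by at least 2-fold, the interval of the ratio left out equality, and the mean was at least 1 CPM. Of the 6 members at that mean 1, HBEGF, was counted as higher, against a background of 2.96% of 14269 loci, and 0 members were counted as lower, against 2.81%. By ratio HBEGF stood at place 17 from the top among 12570 protein-coding loci with that mean. By reads it was locus 2904 of 46865 in PNU282987 and locus 11264 in Control.

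**Figure D1:**
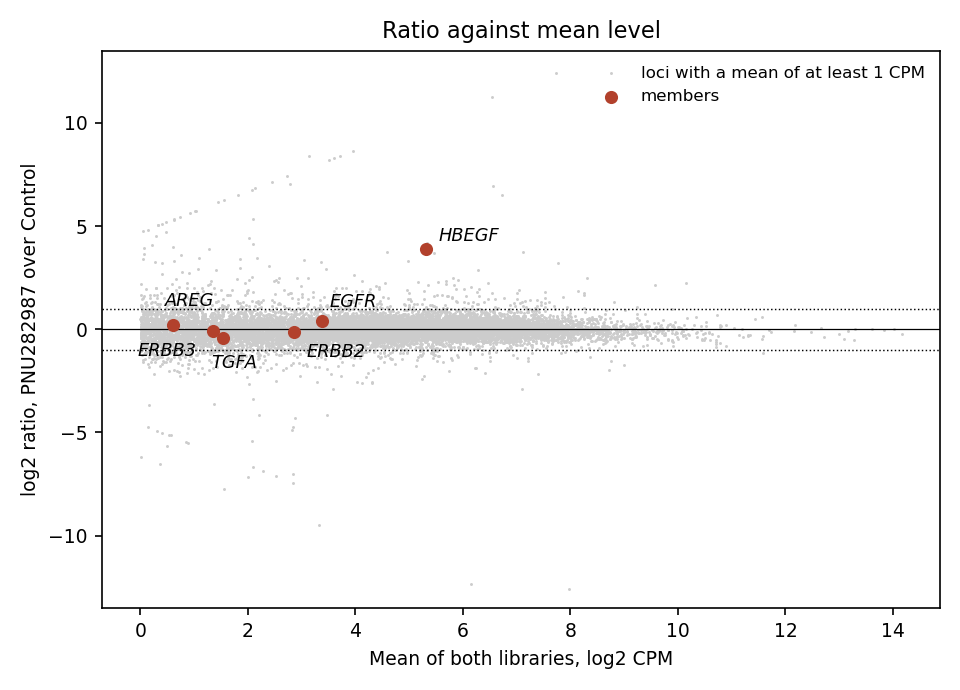
Each grey point is a locus that averaged 1 CPM or more, by its mean in log2 CPM (x axis) and its log2 ratio of PNU282987 to Control (y axis); dotted lines mark 2-fold, and a library with 0 reads enters at 3 reads, which makes the slanting rows of points. HBEGF lies at a log2 ratio of 3.89, and the 5 other members shown lie between -0.45 and 0.38.

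HBEGF lies on chromosome 5 from 140332843 to 140346603 (GRCh38, minus strand), and no annotated locus overlaps it on either strand; the positions of the 578 assembled loci were not used here. AREG, amphiregulin, lies on chromosome 4 from 74445136 to 74455005 (plus strand) and also overlaps no other locus. AREG, a ligand of EGFR alone, had 60 reads in PNU282987 and 55 reads in Control, or 1.65 CPM (1.26 to 2.12) in PNU282987 and 1.41 CPM (1.06 to 1.84) in Control. Its log2 ratio of 0.22 had an interval of -0.33 to 0.78, which includes equality and goes up to 1.71-fold. The 250 bases before the annotated start are shown for these 2 ligands, the most abundant per length in both libraries, because their counts differed so unlike each other. They are taken from RefSeq (GRCh38.p14), written 5′ to 3′ on the gene's strand, with matches to the motifs named below in capitals.
HBEGF, chr5:140346604-140346853, minus strand: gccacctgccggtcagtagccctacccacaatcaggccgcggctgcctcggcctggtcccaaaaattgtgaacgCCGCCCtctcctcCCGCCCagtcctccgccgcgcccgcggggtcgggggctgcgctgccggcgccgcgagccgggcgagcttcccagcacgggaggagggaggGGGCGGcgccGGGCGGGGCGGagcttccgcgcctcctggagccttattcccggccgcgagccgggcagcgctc
AREG, chr4:74444886-74445135, plus strand: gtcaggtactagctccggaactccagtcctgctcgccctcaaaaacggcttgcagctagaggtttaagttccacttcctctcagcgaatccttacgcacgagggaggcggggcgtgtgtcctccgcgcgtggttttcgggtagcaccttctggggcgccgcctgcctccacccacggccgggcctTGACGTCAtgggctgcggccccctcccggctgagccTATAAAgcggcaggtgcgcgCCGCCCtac

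The HBEGF window was 76.4% G and C and the AREG window 65.2%, against a median of 58% over 35114 such windows. Both strands were searched for a TATA box (TATAAA), a cyclic AMP response element (TGACGTCA), an AP-1 site (TGANTCA), a GC box (GGGCGG) and an EGR site (GCGNGGGCG). In the HBEGF window only the GC box matched, at 5 places, whose first bases lie at -176, -163, -73, -63 and -58 from the start; the last 2 share 1 base. The AREG window held a cyclic AMP response element at -65, a TATA box at -29 and a GC box at -9. Of all windows 42.6% held a GC box, 10.7% a TATA box and 1.65% a cyclic AMP response element. These matches describe the letters alone, and binding was not measured.

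TGFA, transforming growth factor α, another ligand of EGFR, lies on chromosome 2 from 70447284 to 70553826. It had 90 reads in PNU282987 and 131 reads in Control, or 2.47 CPM (1.99 to 3.03) in PNU282987 and 3.36 CPM (2.81 to 3.99) in Control. TGFA stood lower in PNU282987 with a log2 ratio of -0.45 (-0.85 to -0.05), a 1.36-fold difference whose interval left out equality by a small margin; with all counts halved, as if each fragment had been counted as 2 reads, the interval of -1.01 to 0.14 included it.

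The other 3 ligands were scarcely detected. EGF (chromosome 4, 109912883 to 110013766), the founding member of the family, had 9 reads in PNU282987 and 19 reads in Control, and its log2 ratio of -0.98 (-2.31 to 0.23) included equality. EREG, epiregulin, which binds EGFR and ERBB4, had 6 reads in PNU282987 and 0 in Control. Its counting interval put it at least 1.26-fold higher in PNU282987, and with Control set at 3 reads the ratio was 2.14-fold. With all counts halved the interval for EREG reached down to a log2 ratio of -1.18 and included equality. BTC, betacellulin, which binds the same receptors, had 3 reads in PNU282987 and 0 in Control, at the limit that a count of 0 allows, so no ratio is given. EREG (74365145 to 74388749), AREG and BTC (74744759 to 74794523) lie within a stretch of chromosome 4, where EPGN, the gene of another EGFR ligand, had 2 reads in PNU282987 and 0 in Control. Of these chromosome 4 neighbours only AREG reached a mean of 1 CPM, and it was not counted as different. The rule could not count the others, whatever their ratio.

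As a pool, the 6 ligands had 2873 reads in PNU282987 and 400 reads in Control, a 7.68-fold difference (6.91 to 8.55). HBEGF made up 94.2% of the ligand reads in PNU282987 (93.2% to 95%) and 48.8% in Control (43.8% to 53.8%). TGFA was 3.13% of the pool in PNU282987 and 32.8% in Control, and AREG 2.09% in PNU282987 and 13.8% in Control. Without HBEGF the other 5 ligands together had 168 reads in PNU282987 and 205 reads in Control, a log2 ratio of -0.19 (-0.49 to 0.11) that includes equality. The difference between the pools lay in the HBEGF reads. Counted per base of transcript, HBEGF was 93.9% of the pool in PNU282987 and 51.0% in Control. With EPGN and the 4 neuregulins added, 11 ligands in all, it was 90.3% of the reads in PNU282987 and 37.8% in Control.

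**Figure D2:**
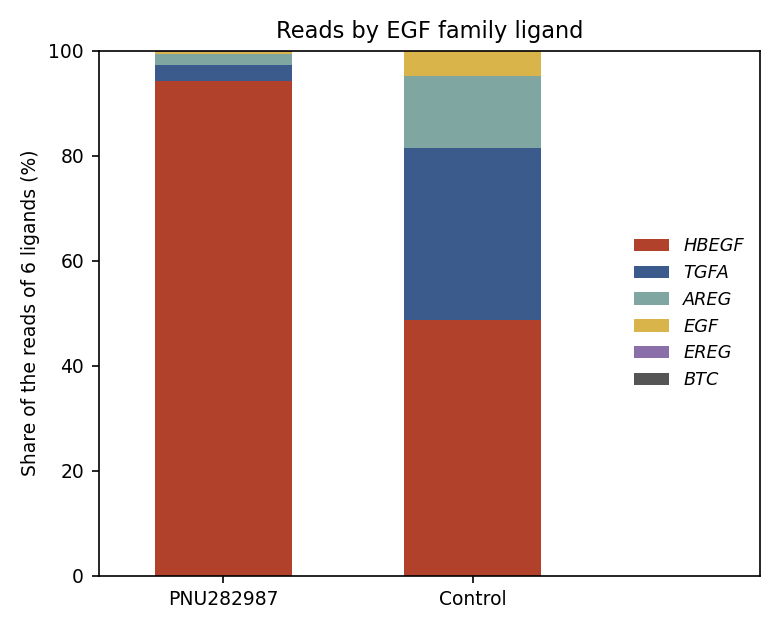
Bars give the share of each ligand, in percent, of all reads of the 6 ligands, with PNU282987 on the left and Control on the right. HBEGF fills 94.2% of the PNU282987 bar (2873 reads) and 48.8% of the Control bar (400 reads).

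The 3 receptors lay close to equality. EGFR (chromosome 7, 55019017 to 55211628), the receptor for HBEGF, AREG, TGFA and EGF, had 427 reads in PNU282987 and 350 reads in Control, or 11.7 CPM (10.6 to 12.9) in PNU282987 and 8.98 CPM (8.07 to 9.97) in Control. It was 1.30-fold higher in PNU282987, with a log2 ratio of 0.38 (0.18 to 0.59). With a trend over GC content and transcript length removed, the EGFR ratio was 0.14 (-0.07 to 0.35) and included equality. Beside it, 7 of the 10 stromal markers had a ratio above 1, against 49.2% of all loci. The summed level of these markers was higher in PNU282987, as given above. Single log2 ratios of the 10 ran from -0.48 for TAGLN to 0.63 for PDGFRA. Of the 8 epithelial markers at 1 CPM 4 had a ratio above 1, against the same share, and the sum of the whole list was slightly lower in PNU282987. Among these EPCAM had a log2 ratio of 0.39, while KRT8 had -0.17, KRT18 -0.03, KRT19 -0.15 and CLDN4 -0.32. The part of stromal or epithelial RNA in the EGFR value was not tested.

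ERBB2 (chromosome 17, 39688094 to 39728658) had 250 reads in PNU282987 and 295 reads in Control, a log2 ratio of -0.14 (-0.39 to 0.11). It overlaps MIEN1, and with the reads of overlapping loci added the ratio was -0.27 (-0.40 to -0.15), mostly the reads of MIEN1 itself. ERBB3 (chromosome 12, 56080108 to 56103505) had 90 reads in PNU282987 and 102 reads in Control, a log2 ratio of -0.08 (-0.51 to 0.34). The 3 receptors together had 767 reads in PNU282987 and 747 reads in Control, a log2 ratio of 0.13 (-0.01 to 0.28). The interval of each single receptor stays within 1.51-fold higher, and its lower bound within a log2 ratio of -0.51.

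Levels of different genes were compared per kilobase of the longest RefSeq-matched transcript. HBEGF had the highest level of the 9 in both libraries, at 31.1 CPM per kilobase in PNU282987 (29.9 to 32.3) and 2.097 CPM per kilobase in Control (1.81 to 2.41). ERBB2 came next, at 1.43 CPM per kilobase in PNU282987 and 1.58 CPM per kilobase in Control, followed by AREG at 1.33 CPM per kilobase in PNU282987 and 1.14 CPM per kilobase in Control. In both libraries the interval of HBEGF lay clear of that of ERBB2. In Control the margin was small, with HBEGF from 1.81 and ERBB2 up to 1.77 CPM per kilobase. ERBB2 and AREG, and AREG and EGFR, had intervals that met in both libraries. EGFR had 1.19 CPM per kilobase in PNU282987 and 0.915 CPM per kilobase in Control, TGFA 0.573 in PNU282987 and 0.780 in Control, and ERBB3 0.417 in PNU282987 and 0.442 in Control. EGFR and TGFA had intervals that met in Control and not in PNU282987, and TGFA and ERBB3 met in PNU282987 and not in Control. EGF, EREG and BTC were last in both, at 0.0999 CPM per kilobase or less.

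**Figure D3:**
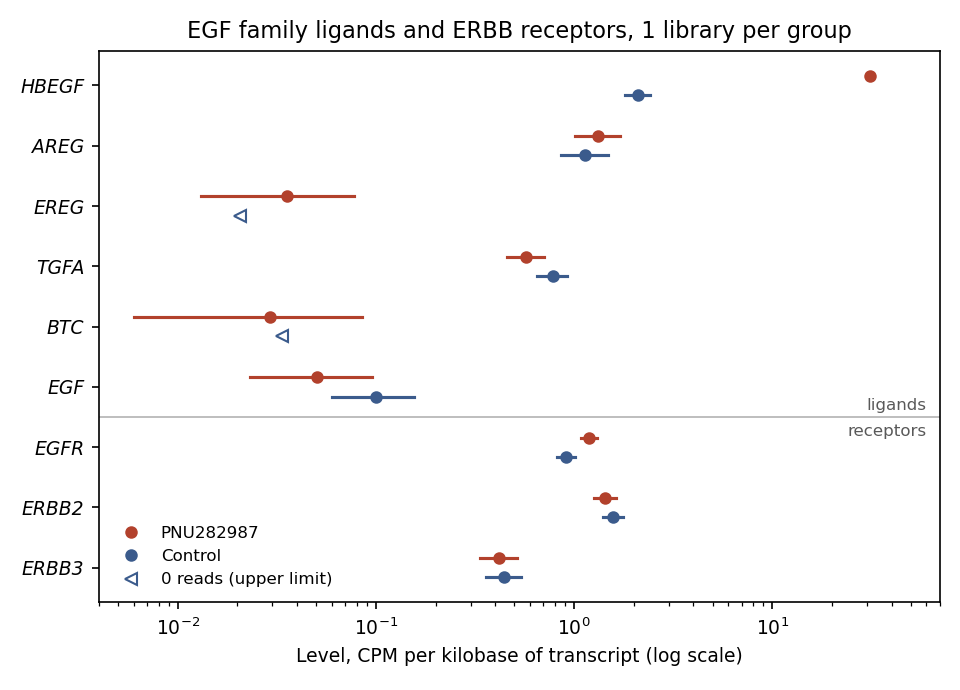
Points give the level of each member in CPM per kilobase of transcript on a log axis, PNU282987 above Control, with 95% counting intervals as bars; open triangles mark the upper limit where a library had 0 reads. HBEGF stands apart at 31.1 in PNU282987 and is highest by a small margin at 2.097 in Control. For the other members at 1 CPM the points of both libraries lie close together.

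The remaining ligands and the remaining receptor of the family had few reads. NRG1, neuregulin 1, a ligand of ERBB3 and ERBB4 and the most abundant of these genes, had 88 reads in PNU282987 and 94 reads in Control, a log2 ratio of 0.00 (-0.44 to 0.44). NRG2 had 0 reads in both, NRG3 20 reads in PNU282987 and 13 in Control, and NRG4 13 in PNU282987 and 9 in Control. ERBB4, the receptor that HBEGF binds besides EGFR, had 30 reads in PNU282987 and 7 reads in Control, or 0.823 CPM in PNU282987 and 0.180 CPM in Control. Its log2 ratio of 2.20 (0.98 to 3.63) left out equality, but its mean lay under 1 CPM, so it was not counted as higher. With a minimum of 10 reads over both libraries in place of 1 CPM it passed the rule, and the count of these 6 genes that were higher became 1.

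The listed genes of ectodomain shedding, its inhibitors among them, and the listed membrane and heparan sulfate partners of HBEGF were all within 2-fold. In the ectodomain shedding list 0 of 14 genes were higher and 0 lower, where the background shares of 2.96% and 2.81% would also leave few or none in a list of this size, with a median log2 ratio of -0.04 against -0.01 over all loci compared. With a threshold of 1.5-fold 0 of the 14 were higher, against 8.77% of all loci, and 1, ADAM19, was lower, near the 8.66% of all loci. ADAM9, a metalloprotease, had 653 CPM in PNU282987 and 648 CPM in Control, and TIMP2, an inhibitor of matrix metalloproteases, 686 CPM in PNU282987 and 848 CPM in Control. TIMP3, an inhibitor of ADAM17, had 721 CPM in PNU282987 and 495 CPM in Control. ADAM17, the main sheddase of this family, had 111 CPM in PNU282987 and 89.6 CPM in Control, a log2 ratio of 0.31 (0.25 to 0.38). RHBDF2, which carries ADAM17 to the cell surface, had 69.9 CPM in PNU282987 and 73.2 CPM in Control.

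Of the 15 membrane and heparan sulfate partners 0 were higher and 0 lower against the same shares, and 3 had a ratio above 1, while 49.2% of all loci did. Their median log2 ratio was -0.33, and -0.26 after the trend over GC content and length was taken out. Over all loci compared the median was -0.01 both before and after. With a threshold of 1.5-fold 0 of the 15 were higher and 2, SDC1 and GPC1, were lower, against 8.77% and 8.66% of all loci. CD81, a tetraspanin, had 516 CPM in PNU282987 and 677 CPM in Control, and ITGB1, the integrin β1 chain, 592 CPM in PNU282987 and 566 CPM in Control. CD9, the tetraspanin that associates with the HBEGF precursor, had 214 CPM in PNU282987 and 305 CPM in Control, a log2 ratio of -0.51 (-0.55 to -0.47).

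Between receptor and ERK no listed gene at 1 CPM was counted as different. Among 20 receptor-proximal adaptors and effectors 0 were higher and 0 lower, near the background shares of 2.96% and 2.81%, and the median log2 ratio was 0.13. The counting intervals of all 20 left out equality, 13 above it and 7 below, with log2 ratios from -0.46 to 0.54. GAB1, a docking protein among the less abundant of them, had 16.9 CPM in PNU282987 and 11.6 CPM in Control. GRB2, the adaptor that links receptors to RAS activation, had 475 CPM in PNU282987 and 491 CPM in Control, and STAT3, a transcription factor activated by many receptors, 181 CPM in PNU282987 and 195 CPM in Control. PTPN11, the phosphatase SHP2 that sustains the signal, had 202 CPM in PNU282987 and 140 CPM in Control. Among 13 genes of the RAS to ERK cascade 0 were higher and 0 lower, with a median of 0.05 and log2 ratios from -0.42 to 0.57. RPS6KA1, a kinase that ERK activates, had 230 CPM in PNU282987 and 199 CPM in Control. Of 14 receptor turnover genes at 1 CPM 0 were higher and 0 lower, with a median of 0.15. CLTC, the clathrin heavy chain, had 859 CPM in PNU282987 and 763 CPM in Control, and RAB7A, a GTPase of late endosomes, 451 CPM in PNU282987 and 475 CPM in Control.

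Transcripts that ERK signalling is known to induce leaned to the PNU282987 side. In the list of ERK-responsive transcripts 2 of 17 genes at 1 CPM were higher and 0 lower, against 2.96% and 2.81% of all loci. A ratio above 1 was found for 14 of the 17, against 49.2% of all loci, and the log2 ratio had a median of 0.40 against -0.01 over all loci compared. EGR1, an immediate early transcription factor, had 1129 reads in PNU282987 and 519 reads in Control, a 2.33-fold difference, and MYC, a driver of cell growth, 2184 reads in PNU282987 and 1028 reads in Control, a 2.27-fold difference. The growth factor LIF, ETV5, CCND1 and JUNB were higher by less than 2-fold, and PHLDA1 was 1.32-fold lower; these 5 were named after their values were seen. With a threshold of 1.5-fold 6 of the 17 were higher and 0 lower, against a background of 8.77% higher and 8.66% lower over all loci.

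Of the 18 negative feedback genes 0 were higher and 0 lower by 2-fold, near the shares of 2.96% and 2.81% over all loci. A ratio above 1 was found for 15, against 49.2% of all loci, and over all 18 the log2 ratio had a median of 0.47. After the trend over GC content and length was taken out, 15 of these 18 and 12 of the 17 ERK-responsive genes stood above equality. The medians were then 0.36 and 0.47. Among all loci so treated 6388 of 13172 stood above equality, with a median of -0.01. PTPN6, the phosphatase SHP-1, had 189 CPM in PNU282987 and 204 CPM in Control, and PTPN1, the phosphatase PTP1B that acts on EGFR, 148 CPM in PNU282987 and 105 CPM in Control. DUSP6, the cytoplasmic phosphatase of ERK, had 4834 reads in PNU282987 and 2612 reads in Control; its 1.98-fold difference lay just outside the 2-fold rule, while MYC at 2.27-fold was the nearest listed gene inside it. With library totals unscaled, DUSP6 passed the rule and the count became 1. By 1.5-fold 5 of the 18 were higher, namely DUSP6, SPRY4, SOCS4, SPRY1 and SPRED2, against 8.77% of all loci, and 1 was lower, the kinase TNK2, near the 8.66% of all loci. SPRY4, a Sprouty inhibitor of the RAS cascade, had 197 reads in PNU282987 and 111 reads in Control, a log2 ratio of 0.92 (0.58 to 1.27). ERRFI1, which binds and blocks EGFR itself, had 933 reads in PNU282987 and 727 reads in Control, a 1.37-fold difference. Genes of such lists are induced by many other inputs to ERK, and protein and phosphorylation were not measured.

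**Figure D4:**
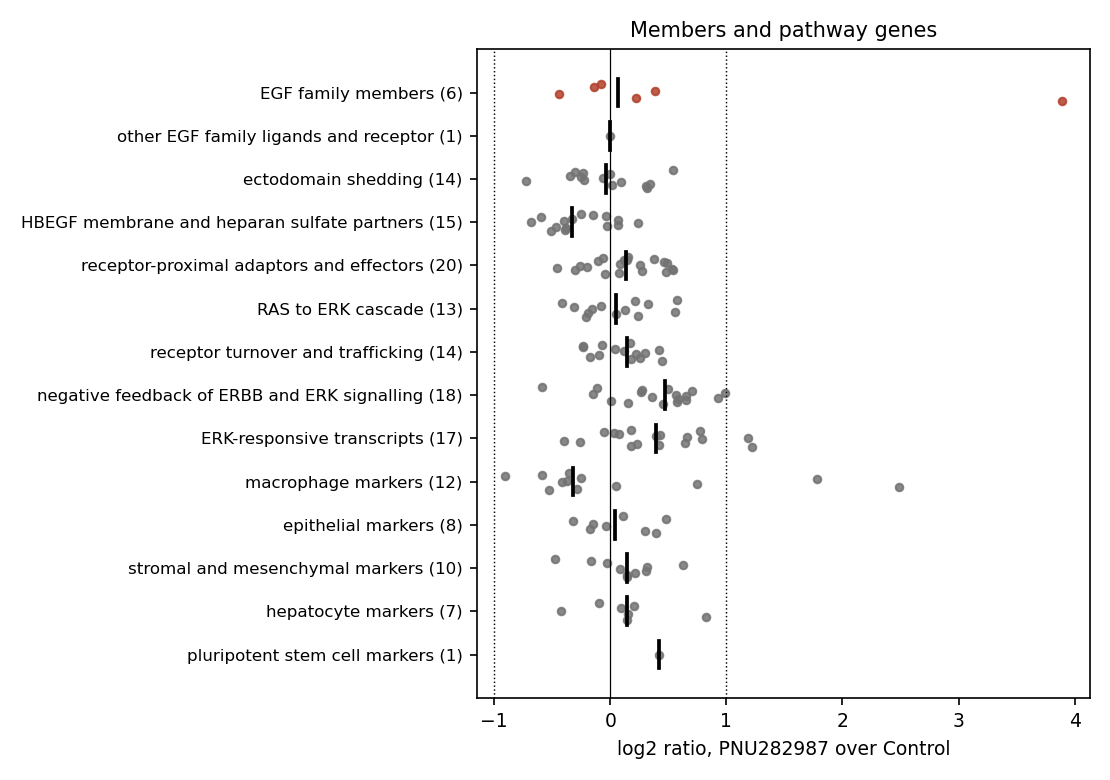
Points give the log2 ratio of PNU282987 to Control (x axis) for each gene at 1 CPM or more, by list, with the number of such genes in brackets, the median as a black bar and dotted lines at 2-fold. HBEGF is the member at 3.89; the medians of the feedback and ERK-responsive lists lie at 0.47 and 0.40, and those of the other pathway lists between -0.33 and 0.15.

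Among protein-coding loci, those nearest to HBEGF over their log2 CPM in both libraries were ASAP2, ORM2, LAMB3, PDLIM4 and ACVRL1. ASAP2, which acts on Arf GTPases, lay at a distance of 0.24 log2 units, with 76.0 CPM in PNU282987 and 4.23 CPM in Control. ORM2, an acute-phase plasma protein gene with a near-identical copy that can share its reads, lay at 0.94, with 44.5 CPM in PNU282987 and 3.34 CPM in Control. Both overlap other loci, and so does LAMB3. LAMB3, a laminin chain, lay at 1.16 with 38.6 CPM in PNU282987 and 8.03 CPM in Control, PDLIM4 at 1.30 with 34.0 CPM in PNU282987 and 7.83 CPM in Control, and ACVRL1, a receptor for bone morphogenetic proteins, at 1.31 with 34.9 CPM in PNU282987 and 8.31 CPM in Control. The likeness rests on 2 libraries and therefore on 2 values per locus.

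The loci around HBEGF on chromosome 5 were also read, a choice made after values were seen. Within 300 kb of it 14 other loci reached 1 CPM. Of these 1 was higher by 2-fold and 0 were lower, against 2.96% and 2.81% of all loci, and the median log2 ratio was 0.39 against -0.01 over all loci compared. That locus was CD14, the lipopolysaccharide co-receptor, 285 kb away, with 539 CPM in PNU282987 and 96.3 CPM in Control. CD14 lies inside the span of the TMCO6 locus. With the reads of overlapping loci added, the CD14 log2 ratio went from 2.48 to 2.28. The nearest expressed neighbour, PFDN1, a chaperone subunit 29.7 kb away, had 66.6 CPM in PNU282987 and 41.1 CPM in Control, a log2 ratio of 0.69 (0.60 to 0.79). CYSTM1, 89.1 kb away, had 41.3 CPM in PNU282987 and 55.1 CPM in Control, a log2 ratio of -0.42. On the other side, 55.2 kb away, the overlapping loci ANKHD1 and ANKHD1-EIF4EBP3 share a start and may split reads. ANKHD1 had 637 reads in PNU282987 and 1016 in Control, a log2 ratio of -0.58, and ANKHD1-EIF4EBP3, with more reads, had 7304 in PNU282987 and 5784 in Control, a log2 ratio of 0.43.

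**Figure D5:**
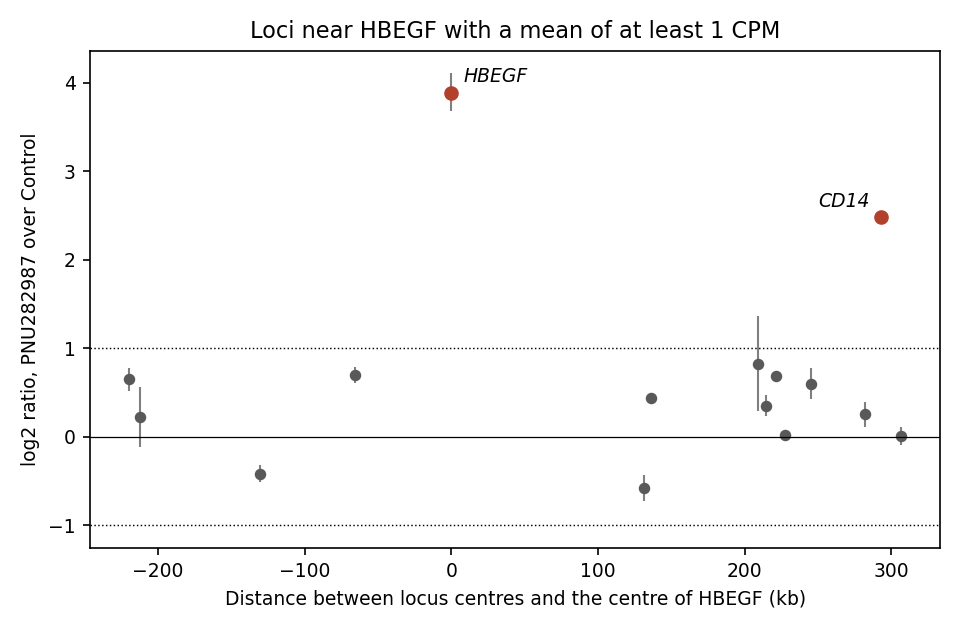
Points give the log2 ratio of PNU282987 to Control (y axis) of loci at 1 CPM or more, by the distance in kb from the centre of HBEGF (x axis), with 95% counting intervals as vertical bars and dotted lines at 2-fold. HBEGF at 3.89 and CD14 at 2.48 are above 2-fold, and the other loci lie between -0.58 and 0.82.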

How the data were processed

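RNA was sequenced from 1 PNU282987 library and 1 Control library, made with a stranded mRNA kit per the labels' protocols. Per the file headers, the authors deposited raw counts of reads for each locus, with no normalization. FastQC 0.11.7, Trimmomatic 0.38, HISAT2 2.1.0, StringTie 2.1.3b, edgeR and GRCh38 are named per the submitters' processing notes; counting of mates, multi-mapping reads and strand is not given in the sources used here. Loci with 2 reads outnumbered loci with 1 read (979 against 817 in PNU282987, 958 against 818 in Control), so fragments may have been counted as 2 reads and intervals may be too narrow.

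Totals were scaled with TMM factors (edgeR 4.0.16, R 4.3.3): 1.01 for PNU282987 and 0.991 for Control. A count of 0 was set at 3 reads in ratios. Named genes are all members, up to 4 genes past the size rule per list or otherwise its 2 with most reads, and the 5 loci nearest to HBEGF; the text prints most of these, 1 gene is not reported here, and other genes were added for their role or after their values were seen. Members and lists were chosen with earlier results of these data known. Positions come from RefSeq (GRCh38.p14), lengths and GC content from GENCODE 29 transcripts, known for 92.3% of the loci compared. Promoter windows matched 8 of 9 members. Alternatives were other scalings (DESeq2 1.42.0 among them), thresholds, filters, thinning, halved counts, overlapping loci and a GC and length trend. Python 3.11.15, SciPy 1.17.1, statsmodels 0.14.6 and matplotlib 3.10.9 were used.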

Additional observations from a re-analysis of the deposited data

How the results depend on the processing

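HBEGF kept a log2 ratio between 3.87 and 3.97 under the 7 alternatives that gave one, and it was the only member counted as higher, with 0 lower, under each scaling, threshold and filter tried. After removal of a trend over GC content and length, EGFR went to 0.14, and the cause was not tested. The median over the members became -0.084 with EGF and no CPM minimum, and 2.14 over the 2 members with at least 10 CPM, which follows from the members included. Over all loci 423 were higher and 401 lower; a 1.5-fold threshold gave 1252 and 1235, a 4-fold threshold 106 and 60, a minimum of 10 CPM 181 and 141, and no CPM minimum with at least 10 reads 950 and 879. With halved counts EREG gave no ratio, at 3 reads against 0, and its interval included equality. Leaving out a library was not possible with 1 per group. No paired analysis was possible because the result comes from no test. Depth limits EGF, EREG and BTC, each under 20 reads per library.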

Other observations

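A few listed genes had reads in 1 library only. ALB, serum albumin, had 19 reads in PNU282987 and 0 in Control, at least 4.99-fold higher by its counting interval and 6.77-fold with Control set at 3 reads, while APOA1, another hepatocyte gene, had 228 reads in PNU282987 and 221 in Control. The pluripotency marker DPPA4 had 13 reads in PNU282987 and 0 in Control, at least 3.26-fold higher by its counting interval and 4.63-fold with Control set at 3 reads, and SALL4 of the same list had 55 reads in PNU282987 and 44 in Control. CBLC, a ubiquitin ligase of the CBL family, had 0 reads in PNU282987 and 8 in Control. It was 2.49-fold lower with PNU282987 set at 3 reads, and its counting interval reached up to 0.626 times the Control level, while its relative CBL had 8180 reads in PNU282987 and 6435 in Control. All 3 lay under a mean of 1 CPM, and ALB and CBLC were named after their values were seen.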
